A study of Homo sapiens with 4 samples.

Results

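Amino acids cross membranes on carrier proteins of the solute carrier (SLC) superfamily, and 7 of its families that carry mainly amino acids were followed here across all arrays of the series: SLC1A, SLC3A, SLC6A, SLC7A, SLC36A, SLC38A and SLC43A. Members were the genes of the platform's probe annotation whose symbol starts with 1 of these names followed by a number, on probe sets that carry exactly 1 gene symbol. This found 62 of the 19738 genes on the array. Of these, 56 are transporter genes, and 6 are antisense or opposite-strand genes that only share a transporter's name (SLC38A2-AS1, SLC38A4-AS1, SLC6A12-AS1, SLC7A11-AS1, SLC7A14-AS1 and SLC7A6OS). None of the 6 differed by 2-fold between any arrays compared below, and all counts that follow are over the 56 transporters: 18 of SLC6A, 13 of SLC7A, 11 of SLC38A, 7 of SLC1A, 3 of SLC43A and 2 each of SLC3A and SLC36A.

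The 4 arrays measured total RNA of cultured human lung adenocarcinoma cells of the lines CL1-0 and CL1-5, with 1 array for each of 4 groups. CL1-0 cells carried either a PSAT1 expression vector or the control vector, and CL1-5 cells either a short hairpin RNA (shRNA) vector against PSAT1 or a non-silencing shRNA vector. The cells had been transduced stably and selected in puromycin over 2 weeks, and 6 ug of total RNA went into each labelling with biotin, per the labels, which do not say whether each line was a pool or 1 clone. CL1-5 is known as a more invasive line derived from CL1-0 by selection. PSAT1, phosphoserine aminotransferase, makes a precursor of serine and turns glutamate into alpha-ketoglutarate, and the series asked how raising it in CL1-0 and lowering it in CL1-5 changed gene expression.

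Members of SLC7 called light chains reach the plasma membrane only when bound to a heavy chain of SLC3, and as exchangers they import 1 amino acid while exporting another. Sodium-coupled carriers of SLC1, SLC6 and SLC38 build up the intracellular pools that such exchangers spend, and SLC36 carriers and some SLC38 carriers move amino acids out of lysosomes, where their supply is read by the growth kinase complex mTORC1. In tumour cells SLC7A5, SLC7A11 and SLC1A5 are known as major routes for leucine, cystine and glutamine, and several of these genes are induced by the transcription factor ATF4 when amino acids run short.

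Signals are MAS5 intensities, a linear brightness per probe set. Values under 49.0, the median of all non-control probe sets over the 4 arrays, were set to that floor. A transporter was taken as measured between 2 arrays where either lay above the floor, and a ratio against an array at the floor is a bound, written "at least". Each group had a single array, so differences have no replicate check, no test was possible and no p-value is given. The words higher, lower, rose and fell are kept for changes of at least 2-fold, which is a criterion of size and not of significance. RNA was read from whole cultures, so fewer cells of a type and less RNA per cell cannot be told apart.

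PSAT1 itself fell 12.3-fold and 3.58-fold on its 2 probe sets in CL1-5 with the hairpin (143 against 1760, and 107 against 384), while in CL1-0 with PSAT1 it read 1.30 and 1.07 times the vector array. The share of probe sets above the floor was closer within a line than between the lines. It was 48.3% and 48.0% on the hairpin and non-silencing arrays of CL1-5, against 51.7% and 52.0% on the PSAT1 and vector arrays of CL1-0. The labels call the cells type II alveolar cells. Of 10 markers of that cell type with a probe set, 8 were above the floor on every array, but SFTPD and SLC34A2 were at the floor on all 4, as were the epithelial markers EPCAM, CDH1 and KRT19. Markers of other cells were mostly at the floor, with 2 to 3 of 10 above it on an array, and PTPRC, CD3E, CDH5, COL1A2, DCN and LUM were at the floor on all 4. Summed signals of the 5 epithelial markers were 7395 and 6647 on the hairpin and non-silencing arrays of CL1-5, against 768 and 899 on the PSAT1 and vector arrays of CL1-0, from KRT8 and KRT18 above the floor. For the 10 markers of other cells the same arrays gave sums of 590.5 and 632 in CL1-5, against 468 and 813 in CL1-0, with the collagen COL3A1 at 312 on the vector array of CL1-0. The part of these markers in the results was not tested.

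Most of the transporters were read in both lines. Of the 56 transporters, 31 were above the floor on all 4 arrays, 11 on 1 to 3 arrays, and 14 on none. Thus 42 of the 56 were above it on at least 1 array, as were 14018 of all 19738 genes. Those read on all 4 arrays, at dim signal, included SLC6A3, SLC6A7, SLC6A11, SLC6A18 and SLC6A19. By array, 36 and 34 were above the floor on the hairpin and non-silencing arrays of CL1-5, and 35 and 39 on the PSAT1 and vector arrays of CL1-0. The 14 at the floor throughout included SLC3A1, the heavy chain of the renal cystine transporter, SLC7A3, a cationic amino acid carrier, and SLC7A10 and SLC7A13, light chains known from brain and kidney. They also held SLC7A14, a lysosomal relative of the cationic carriers, SLC6A14, a broad carrier of neutral and cationic amino acids, SLC6A5 and SLC6A9, the glycine carriers of neurons and glia, the serotonin carrier SLC6A4, the betaine carrier SLC6A12 and the kidney and gut carrier SLC6A20. SLC38A5, a glutamine carrier, SLC38A11 and SLC43A3 completed the 14. The signals behind 2 of these were far under the floor: SLC6A9 read 13.9 and 16.2 on the hairpin and non-silencing arrays of CL1-5 and 19.6 and 19.9 on the PSAT1 and vector arrays of CL1-0, and SLC6A14 read between 5.86 and 7.94 on the 4 arrays. These 2 genes therefore have no ratio in any pair.

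**Figure D1:**
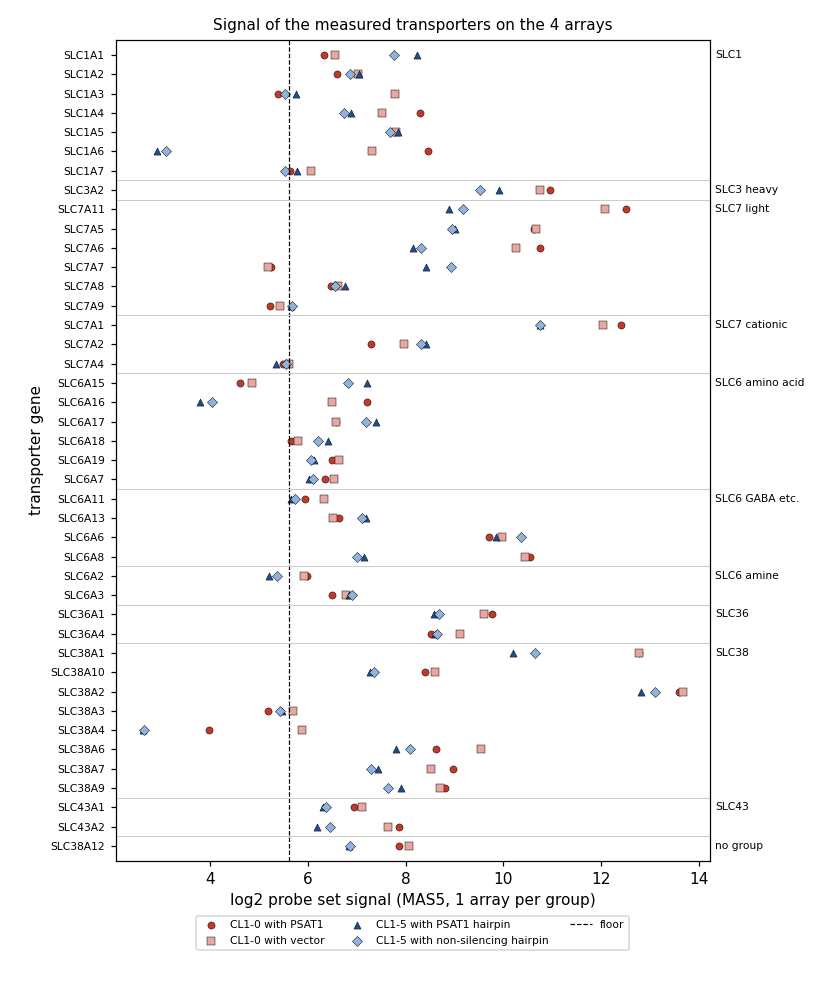
Log2 of the deposited MAS5 signal (horizontal axis) of the 42 transporters above the floor on at least 1 array (vertical axis, grouped by role), with 1 point per array and the floor of 49.0 as a dashed line. The arrays of a line lie close together for most members, and SLC7A11, SLC6A8, SLC38A1 and SLC7A6 lie lower on both CL1-5 arrays while SLC7A7 is above the floor on the CL1-5 arrays only.

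On the CL1-0 array labelled as expressing PSAT1, where PSAT1 itself was under 2-fold from vector, 2 glutamate carriers of SLC1 differed from vector by 2-fold or more, in opposite directions. SLC1A6, a high-affinity glutamate carrier best known from cerebellar neurons, read 352 with PSAT1 and 159 with vector, 2.21-fold higher, and 7.45 and 8.55 on the hairpin and non-silencing arrays of CL1-5. Signal for it was thus above the floor in CL1-0 alone. SLC1A3, the glutamate and aspartate carrier of astrocytes, read 42.0 with PSAT1 and 220.5 with vector, at least 4.50-fold lower, and 53.6 and 45.9 on the hairpin and non-silencing arrays of CL1-5. The vector array of CL1-0 was therefore the only one of the 4 with a clear SLC1A3 signal, and the same array enters the comparison of the lines below.

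Of the 39 transporters measured in the CL1-0 pair, SLC1A6 was the 1 that was higher (2.56%, against 2.40% of all 13165 measured genes) and SLC1A3 the 1 that was lower (2.56%, against 1.0% of all genes). Both shares rest on a single gene. The median log2 ratio of the 39 was -0.07, against -0.02 over all genes, with 14 ratios above 0 and 25 below (64.1%, against 51.9% of all genes). As many as 82.1% of the transporters and 82.1% of all genes lay within 0.5 of 0 on the log2 scale. The rise of SLC1A6 was 1.95-fold under quantile normalization, just short of 2-fold, and 2.10-fold under median centring, and it was not called when probe sets that can match several transcripts were left out. The fall of SLC1A3 remained at least 3.59-fold under both scalings. A second SLC1A6 probe set read 148 with PSAT1 and 44.3 with vector, at least 3.02-fold higher. The remaining SLC1A6 probe set, at 32.4 and 42.6, and the other probe set of SLC1A3 were at the floor on every array.

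**Figure D2:**
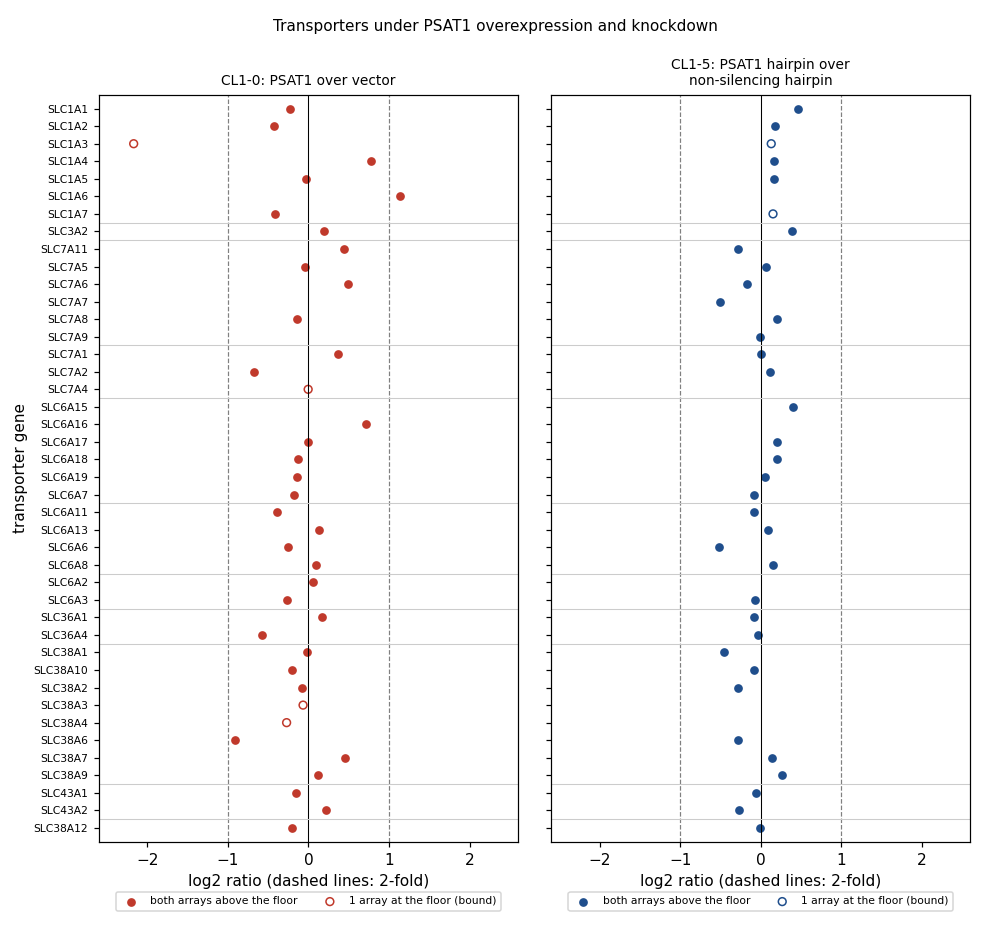
Log2 ratio (horizontal axis) of each measured transporter (vertical axis, in role order), for CL1-0 with PSAT1 over vector on the left and CL1-5 with the PSAT1 hairpin over the non-silencing hairpin on the right; dashed lines mark 2-fold and open circles are bounds. In CL1-0 SLC1A6 at 1.14 and SLC1A3 at -2.17 lie past the lines, and in CL1-5 all 36 points lie between -0.51 and 0.46.

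Among the other transporters of the CL1-0 pair, 5 came nearest to 2-fold. SLC38A6, a member of the sodium-coupled glutamine carrier family, read 395 with PSAT1 and 746 with vector, a log2 ratio of -0.92. SLC1A4, an exchanger of serine, alanine and cysteine, read 312 with PSAT1 and 183 with vector, a log2 ratio of 0.77. Its probe sets did not give 1 value: the other 3 measured ones read 377 against 172 (2.19-fold), 379 against 196 (1.94-fold) and 69.2 against 67.3 (1.03-fold). SLC6A16, an orphan member of SLC6, read 148 with PSAT1 and 89.9 with vector, and SLC7A2, which imports arginine and lysine, read 156 and 249. SLC36A4, a carrier of proline and tryptophan, read 368 and 549 on the probe set used, but its other measured probe set ran the other way, at 127 and 90.2, and averaging both gave a log2 ratio of -0.04. On the probe sets used, all 5 differences exceeded 0.361, the SD of log2 ratios over the probe sets of 1 transporter in this pair, which is no replicate error, and none reached 2-fold.

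The leucine and cystine exchangers moved little. SLC3A2, the heavy chain shared by most light chains, read 1974 with PSAT1 and 1732 with vector (1.14-fold), and SLC7A5, the leucine and tryptophan importer, read 1584 and 1628. SLC7A11, which exports glutamate in exchange for cystine, read 5870.2 with PSAT1 and 4340.4 with vector, 1.35-fold. A second SLC7A11 probe set read 5306 and 3858, while the remaining, far dimmer one went the other way, at 299 with PSAT1 and 509 with vector. SLC7A6, which exchanges arginine for glutamine and sodium, read 1709 and 1218 (1.40-fold) and SLC7A1, the main arginine importer of most cells, 5449.9 and 4229 (1.29-fold). For both, the other probe sets gave ratios on both sides of 0.

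A further 9 carriers, described whatever they did, were within 0.5 of 0 on the log2 scale in the CL1-0 pair. SLC1A5, the glutamine exchanger of many tumour cells, read 217 with PSAT1 and 222 with vector, SLC38A1 and SLC38A2, sodium-coupled glutamine and alanine carriers, read 6971 and 7031, and 12299 and 13005, in the same order. The taurine carrier SLC6A6 read 839.6 with PSAT1 and 997 with vector, and the creatine carrier SLC6A8 read 1485 and 1392. Of the lysosomal members, SLC36A1, which exports small amino acids, read 869 with PSAT1 and 776 with vector, and SLC38A9, the arginine sensor that signals to mTORC1, read 449.9 and 415. SLC43A1 and SLC43A2, facilitative carriers of branched-chain and aromatic amino acids, read 122 and 137, and 233 and 200.0. These 9 differences were all smaller than the SD of 0.361 between probe sets of 1 transporter.

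In CL1-5 with the PSAT1 hairpin no amino acid transporter rose or fell. Of 36 measured, 0 were higher (0.389% of all 12850 measured genes were) and 0 were lower (0.405% of all genes were). Their median log2 ratio was 0.03, against 0.02 over all genes, and 19 were above 0 and 17 below (47.2%, against 46.2% of all genes). As many as 94.4% of both the transporters and all genes lay within 0.5 of 0. The differences nearest to 2-fold were those of SLC6A6, the taurine carrier, which read 917 with the hairpin and 1309 with the non-silencing control (log2 ratio -0.51), and of SLC7A7, the partner of SLC3A2 that exports arginine, which read 343 and 486 (-0.50). SLC38A1 read 1174 and 1613 (-0.46), with 2 further probe sets also below 0. In the other direction SLC1A1, a neuronal and renal glutamate carrier that also takes up cysteine, read 299 with the hairpin and 217 with the control (0.46), SLC6A15, a carrier of branched-chain amino acids and proline, 148 and 112 (0.40) and SLC3A2 962 and 738 (0.38).

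All 6 measured members of SLC1 had ratios above 0 in the CL1-5 pair, where 46.2% of all genes were below 0. Their log2 ratios ran from 0.13, a bound, to 0.46. The median was 0.16, and 0.22 and 0.23 under quantile normalization and median centring. SLC1A2, SLC1A4 and SLC1A5, at 0.175, 0.158 and 0.164, lay under the SD of 0.180 between probe sets of 1 transporter. SLC1A3 and SLC1A7, at least 0.13 and 0.15, are bounds, so their size cannot be set under it. SLC1A3 was at 0.22 with the floor at the 25th percentile. SLC1A4 read 118 with the hairpin and 106 with the control, and SLC1A5 read 229.8 and 205. The exchangers SLC7A5 (517 and 494) and SLC7A11 (472 and 576) and the arginine carrier SLC7A1 (1719 and 1717) also stayed within 0.5 of 0 on the log2 scale. So did SLC38A2 (7196 and 8741), SLC38A9 (239 and 199), SLC36A1 (385 and 408), SLC36A4 (388 and 397), SLC43A1 (78.9 and 82.5), SLC43A2 (72.5 and 87.7) and SLC6A8 (141 and 128), each with the hairpin array first.

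The 2 manipulations, which share no array, were also set side by side. Of the 33 transporters measured in both, 15 had log2 ratios of opposite sign (45.5%), against 6751 of 11997 genes (56.3%). None was past 2-fold in both, so the signs describe differences of small size. SLC7A11 was 1.35-fold above vector with PSAT1 and 1.22-fold under its control with the hairpin, and SLC7A6 1.40-fold above and 1.12-fold under. Their other probe sets did not all go under with the hairpin. Those of SLC7A6 gave log2 ratios of 0.26 and 0.05, and those of SLC7A11 0.14 and -0.48. SLC3A2 was above its control in both, by 1.14-fold with PSAT1 and 1.30-fold with the hairpin.

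Far larger differences separated the lines. In CL1-5 with the non-silencing control, set against CL1-0 with vector, the cystine exchanger SLC7A11, the creatine carrier SLC6A8, the glutamine carrier SLC38A1 and the arginine exchanger SLC7A6 were lower, and SLC7A7, the other arginine exchanger of the same subfamily, was higher. SLC7A11 read 472 and 576 on the hairpin and non-silencing arrays of CL1-5, against 5870.2 and 4340.4 on the PSAT1 and vector arrays of CL1-0. The control arrays differed 7.53-fold, and the other 2 probe sets gave 7.20-fold and 6.20-fold. SLC6A8 read 141 and 128 in CL1-5, against 1485 and 1392 in CL1-0 in the same order of arrays, and was 10.9-fold lower. Its other 2 probe sets gave 4.32-fold and 5.11-fold, and near-identical copies of this gene exist, so its signal may hold theirs.

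SLC38A1 read 1174 and 1613 on the hairpin and non-silencing arrays of CL1-5 and 6971 and 7031 on the PSAT1 and vector arrays of CL1-0, 4.36-fold lower between the controls. Its 2 other measured probe sets gave 4.76-fold and, at much dimmer signal, 1.76-fold. SLC7A6 read 284 and 319 in CL1-5, against 1709 and 1218 in CL1-0, 3.82-fold lower, and its other probe sets gave 4.17-fold and 2.93-fold. SLC7A7 ran the other way, at 343 and 486 in CL1-5, against 38.1 and 36.0 in CL1-0, at least 9.92-fold higher, on its only probe set. For each of these 5 carriers, both CL1-5 arrays lay 2-fold or more to the same side of both CL1-0 arrays.

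Of the 42 transporters measured in the pair of control arrays, 3 were higher in CL1-5 (7.14%, against 5.14% of all 13704 measured genes) and 15 were lower (35.7%, against 24.7% of all genes). The 42 had a median log2 ratio of -0.57, against -0.48 for all genes, and 76.2% of their ratios were below 0 as were 76.8% of those of all genes. The deposited values thus run lower in CL1-5 for most genes, and a transporter's ratio is better read against the median of all genes. After that shift was taken off, SLC6A8 stood at -2.97, SLC7A11 at -2.43, SLC38A1 at -1.64, SLC7A6 at -1.45, SLC7A5 at -1.24 and SLC7A7 at 3.79. Of all measured genes, 0.679% lay as far out as SLC6A8 or further on its side, 1.04% as far as SLC7A11, 3.16% as far as SLC38A1, 4.51% as far as SLC7A6, 6.71% as far as SLC7A5 and 0.832% as far as SLC7A7.

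Fewer transporters were lower once the arrays were put on 1 scale. Quantile normalization gave medians of -0.28 for the transporters and 0.00 for all genes, and left 5 higher (12.2% of 41, against 9.29% of all genes) and 6 lower (14.6%, against 8.71%). Centring each array on the median of its bright probe sets gave medians of 0.03 and 0.09, and left 6 higher (14.6% of 41, against 10.1%) and 7 lower (17.1%, against 8.59%). Under both, SLC7A11, SLC6A8, SLC38A1, SLC7A6, SLC1A3 and SLC1A6 were lower and SLC7A7, SLC1A1 and SLC6A15 higher. SLC7A5 was 2.15-fold lower after centring and just short of 2-fold after quantile normalization. SLC6A6 and SLC6A17, under 2-fold on the deposited values, were past 2-fold upward under both scalings, and SLC6A13, a carrier of GABA and taurine, after centring alone.

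**Figure D3:**
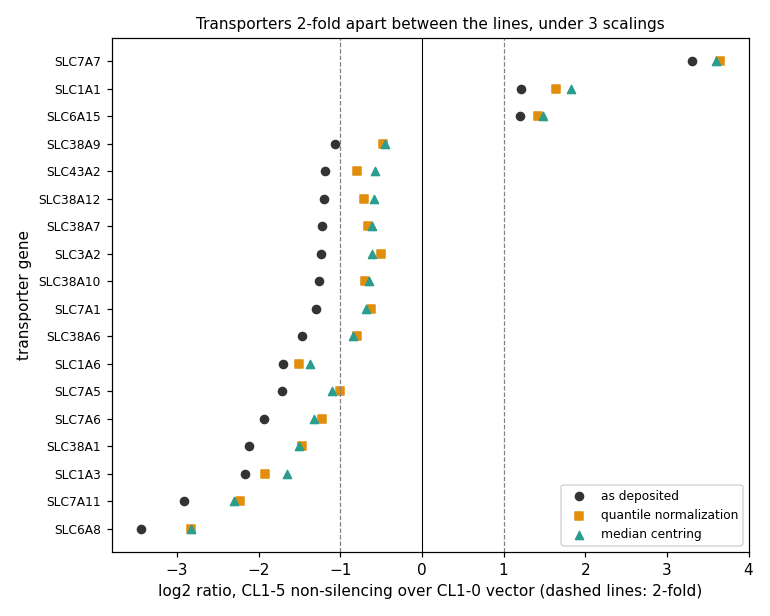
Log2 ratio of CL1-5 non-silencing over CL1-0 vector (horizontal axis) for the 18 transporters that differed 2-fold or more on the deposited values, each with 3 points for the deposited values, quantile normalization and median centring; dashed lines mark 2-fold. Of the 15 lower transporters, 6 stay past the line under both scalings, and all 3 higher ones do.

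By role, the heteromeric exchangers held differences both ways. Among them 3 of 6 measured light chains were lower, SLC7A11, SLC7A6 and SLC7A5, against 24.7% of all genes. The 1 that was higher was SLC7A7, against 5.14% of all genes. Quantile normalization left 2 of 6 lower (8.71% of all genes) and median centring 3 of 6 (8.59%). SLC7A7 was the 1 higher light chain under both, against 9.29% and 10.1% of all genes. SLC7A5 read 517 and 494 on the hairpin and non-silencing arrays of CL1-5 and 1584 and 1628 on the PSAT1 and vector arrays of CL1-0, 3.29-fold lower. The heavy chain SLC3A2 read 962 and 738 in CL1-5, against 1974 and 1732 in CL1-0, 2.35-fold lower on the deposited values but 1.41-fold and 1.53-fold under the scalings. On its hairpin array it was 2.05-fold under the PSAT1 array of CL1-0, so this difference lies close to the 2-fold line. The light chain SLC7A8, a partner of SLC3A2 for neutral amino acids, read 108 and 93.7 in CL1-5, against 88.9 and 98.5 in CL1-0, and those ranges overlap. SLC7A9, the partner of SLC3A1, read 50.6 and 50.9 in CL1-5 and was at the floor in CL1-0, a ratio of at least 1.04-fold.

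The 8 measured sodium-coupled neutral carriers of SLC38 all had ratios below 0 on the deposited values, as did 76.8% of all genes, and SLC38A2 was at 0.04 after median centring. Of the 8, 5 were lower on the deposited values, against 24.7% of all genes, with a median log2 ratio of -1.14. Under either scaling 1 of 7 was lower, with medians of -0.67 and -0.61. Less the shift of all genes, SLC38A3 and SLC38A4 stood at 0.42 and 0.21, each on a bound. That 1 was SLC38A1. SLC38A6 read 222 and 270.1 on the hairpin and non-silencing arrays of CL1-5 and 395 and 746 on the PSAT1 and vector arrays of CL1-0, 2.76-fold lower, and SLC38A7, a lysosomal glutamine exporter, read 173 and 157 in CL1-5, against 501 and 367 in CL1-0, 2.33-fold lower. SLC38A10 read 153 and 162 in CL1-5, against 338 and 389 in CL1-0 (2.39-fold, with its other probe sets under 2-fold), and SLC38A9 read 239 and 199 in CL1-5, against 449.9 and 415 in CL1-0 (2.09-fold). None of these 4 was past 2-fold under either scaling. SLC38A2 read 7196 and 8741 in CL1-5, against 12299 and 13005 in CL1-0, 1.49-fold under vector on the probe set used and 2.10-fold and 2.14-fold on the other 2. SLC38A12, also named for this family but in no role group here, read 115 and 116 in CL1-5, against 232 and 267 in CL1-0, 2.30-fold lower and under 2-fold with either scaling.

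Of the 7 measured carriers of SLC1, 2 were lower in CL1-5 and 1 was higher, all 3 of them carriers of glutamate, against 24.7% lower and 5.14% higher over all genes. With so few members these counts lie near the shares of all genes. SLC1A1 read 299 and 217 on the hairpin and non-silencing arrays of CL1-5 and 79.8 and 93.6 on the PSAT1 and vector arrays of CL1-0, 2.32-fold higher, with both CL1-5 arrays above both CL1-0 arrays. Its second, dim probe set gave 1.14-fold. SLC1A6, at the floor in CL1-5, was at least 3.25-fold lower than with vector, and its other probe sets were at the floor on both control arrays. It was not called with the floor at the 65th percentile, with probe sets averaged, or without probe sets that can match several transcripts. SLC1A3 was at least 4.50-fold lower than with vector, but the PSAT1 array of CL1-0 was at the floor like CL1-5 non-silencing, so the CL1-0 arrays did not both differ from CL1-5. SLC1A5 read 229.8 and 205 in CL1-5, against 217 and 222 in CL1-0, ranges that overlap, and SLC1A4 read 118 and 106 against 312 and 183, 1.72-fold under vector. Of its other 3 measured probe sets, 2 were 2.45-fold lower and 1 gave 1.08-fold.

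Cationic, SLC6, SLC36 and SLC43 carriers gave a mixed picture between the lines. SLC7A1 read 1719 and 1717 on the hairpin and non-silencing arrays of CL1-5 and 5449.9 and 4229 on the PSAT1 and vector arrays of CL1-0, 2.46-fold lower, yet its dimmer probe sets gave log2 ratios of -0.63 (a bound), -0.23 and 0.16. SLC43A2 read 72.5 and 87.7 in CL1-5, against 233 and 200.0 in CL1-0, 2.28-fold lower, and its second probe set was at least 3.09-fold lower. SLC43A1 read 78.9 and 82.5 against 122 and 137. SLC36A1 read 385 and 408 in CL1-5, against 869 and 776 in CL1-0, 1.90-fold under vector, and SLC36A4 read 388 and 397 against 368 and 549. On the probe sets used, none of these 5 was past 2-fold under either scaling. SLC6A15 read 148 and 112 in CL1-5, against 24.4 and 28.8 in CL1-0, at least 2.29-fold higher, and a second probe set gave at least 1.90-fold. SLC6A6 read 917 and 1309 in CL1-5, against 839.6 and 997 in CL1-0, ranges that overlap on the deposited scale, and SLC6A17, a carrier of neutral amino acids into synaptic vesicles, read 168 and 146 against 94.5 and 95.2, 1.53-fold above vector.

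Requiring all 4 arrays to separate the lines, on the deposited values alone, gave a similar list. Both CL1-5 arrays were 2-fold or more above both CL1-0 arrays for 3 of the 42 transporters (7.14%, against 3.55% of 14018 genes) and 2-fold or more below for 11 (26.2%, against 17.0%). The 3 were SLC1A1, SLC6A15 and SLC7A7. The 11 were SLC7A11, SLC7A6, SLC7A5, SLC7A1, SLC6A8, SLC38A1, SLC38A7, SLC38A10, SLC38A12, SLC43A2 and SLC1A6. Between the control arrays, SLC7A5, SLC7A1, SLC38A7, SLC38A10, SLC38A12 and SLC43A2 were under 2-fold after quantile normalization. These arrays carry the manipulations as well as the line, and they are not replicates.

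**Figure D4:**
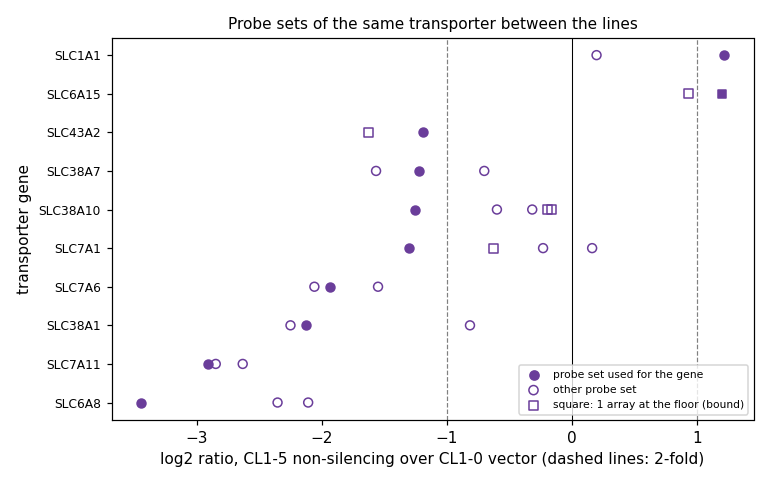
Log2 ratio of CL1-5 non-silencing over CL1-0 vector (horizontal axis) for every measured probe set of the 10 transporters past 2-fold between the lines that have more than 1 (vertical axis), with the probe set used for the gene filled and bounds drawn as squares. The 3 probe sets of SLC7A11 lie between -2.91 and -2.63 and those of SLC6A8 between -3.45 and -2.11, while those of SLC7A1 run from -1.30 to 0.16.

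Probe sets of 1 gene did not always point the same way. Of 21 transporters with more than 1 measured probe set, 4 had ratios of mixed sign between the lines (SLC36A1, SLC6A19, SLC6A6 and SLC7A1), against 7 of 19 in the CL1-0 pair and 9 of 17 in the CL1-5 pair. Over the probe sets of a transporter, log2 ratios had an SD of 0.546 between the lines, 0.361 in the CL1-0 pair and 0.180 in the CL1-5 pair, near the 0.513, 0.289 and 0.175 over all genes. SLC7A5, SLC3A2, SLC7A7, SLC1A5, SLC38A6 and SLC38A12 rest on a single probe set each.

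The start of several of these genes holds the core of the C/EBP-ATF response element, the site through which ATF4 and its partners are known to act on amino acid genes. RefSeq promoter windows (GRCh38.p14, 250 bases before to 50 after the start) were found for 42 of the 56 transporters, as 64 windows. The core TGATGNAA, searched on both strands, was in 6 windows (9.38%) and in 3.62% of all 35116 windows of the table, those of SLC1A3, SLC1A4, SLC1A5, SLC38A1, SLC3A2 and SLC7A1. The antioxidant response element core TGACNNNGC was in 7 windows (10.9%, against 13.3% of all windows), and the E-box CACGTG in 10 (15.6%, against 7.26%). Of the 6 carriers with the TGATGNAA core, the 4 below were above the floor on all 4 arrays and differed 1.5-fold or more in a pair, and they are shown so that the element can be seen at its place beside the start. Each is written 5′ to 3′ along the gene's strand, with the match in capitals.
SLC3A2 (chr11:62881449-62881748, plus strand, 1 of 3 windows, match from 38 to 45 bases after the start): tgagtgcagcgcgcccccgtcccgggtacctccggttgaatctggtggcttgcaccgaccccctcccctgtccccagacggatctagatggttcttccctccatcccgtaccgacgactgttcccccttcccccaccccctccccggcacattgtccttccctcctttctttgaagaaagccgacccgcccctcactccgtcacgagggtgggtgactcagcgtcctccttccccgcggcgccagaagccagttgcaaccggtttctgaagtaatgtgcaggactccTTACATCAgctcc
SLC38A1 (chr12:46266467-46266766, minus strand, 1 of 2 windows, match from -4 to 4): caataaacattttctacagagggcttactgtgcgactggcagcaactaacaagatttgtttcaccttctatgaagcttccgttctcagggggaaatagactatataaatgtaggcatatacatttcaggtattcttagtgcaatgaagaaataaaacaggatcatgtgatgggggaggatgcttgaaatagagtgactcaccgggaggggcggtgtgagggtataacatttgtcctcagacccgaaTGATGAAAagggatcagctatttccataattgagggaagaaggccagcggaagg
SLC7A1 (chr13:29595639-29595938, minus strand, its 1 window, match from 8 to 15): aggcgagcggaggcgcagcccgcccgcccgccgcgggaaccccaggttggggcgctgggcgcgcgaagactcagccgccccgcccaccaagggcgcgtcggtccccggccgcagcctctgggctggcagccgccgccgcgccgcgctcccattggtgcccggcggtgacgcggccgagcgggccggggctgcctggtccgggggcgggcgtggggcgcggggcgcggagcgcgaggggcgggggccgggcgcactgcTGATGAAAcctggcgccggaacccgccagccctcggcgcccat
SLC1A4 (chr2:64989149-64989448, plus strand, 1 of 2 windows, match from -7 to 1): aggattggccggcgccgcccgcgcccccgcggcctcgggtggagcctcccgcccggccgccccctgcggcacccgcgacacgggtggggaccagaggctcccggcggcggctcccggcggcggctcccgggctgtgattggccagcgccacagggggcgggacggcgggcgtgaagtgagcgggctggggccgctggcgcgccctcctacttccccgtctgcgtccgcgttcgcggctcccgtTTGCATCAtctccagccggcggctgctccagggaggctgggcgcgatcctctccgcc
The SLC38A1 and SLC7A1 windows carry TGATGAAA in the direction of the gene, and those of SLC3A2 and SLC1A4 carry the core on the opposite strand. In SLC3A2 and SLC7A1 the match overlaps no match of the other motifs, and the windows of SLC38A1 and SLC1A4 hold neither of the others. A match of letters is a description and shows no binding. In CL1-0 with PSAT1, the 4 genes had log2 ratios of 0.19, -0.01, 0.37 and 0.77 in the order shown. The carriers with the core that are not shown, SLC1A3 and SLC1A5, had -2.17 (a bound) and -0.03. The 6 thus had ratios on both sides of 0.

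The genes around the transporters were read from 4 lists: mitochondrial amino acid carriers, lysosomal and other exporters with partner proteins, amino acid sensing to mTORC1, and the arm of the kinase GCN2 and ATF4. In CL1-0 with PSAT1 the GCN2 and ATF4 arm held 6 higher genes and 0 lower of 17 measured, against 2.40% higher and 1.0% lower of all genes, with a median log2 ratio of 0.29. DDIT3, a stress-induced transcription factor, read 1922 with PSAT1 and 555 with vector (3.46-fold), the pseudokinase TRIB3 2444 and 1183 (2.07-fold) and CHAC1, which degrades glutathione, 519 and 183 (2.84-fold). The others were DDIT4 (3.50-fold), an inhibitor of mTORC1, the lipoprotein receptor VLDLR (3.32-fold) and the leucine sensor SESN2 (2.06-fold, 693 and 337). Quantile normalization left 5 of the 6 and median centring 4. ATF4 itself read 11318 and 9275 and its target ASNS, asparagine synthetase, 4859.8 and 4523, both under 2-fold. Among the transporters, SLC1A6 was the only one higher in the same pair.

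The sensing list had 2 higher and 0 lower of 25 in the CL1-0 pair, set against the same shares of all genes, with a median of 0.13: SESN2 and the GTPase RRAGD, which read 1708 with PSAT1 and 633 with vector (2.70-fold). RRAGD remained past 2-fold under both scalings and SESN2 under neither. Among mitochondrial carriers 0 of 12 were higher or lower, and among lysosomal and other exporters and partners 0 of 7. In CL1-5 with the hairpin, 0 genes of these lists were higher or lower, of 13, 8, 24 and 17 measured, with medians of 0.07, -0.07, 0.01 and -0.05 in the order named above. Of all genes in this pair 0.389% were higher and 0.405% lower, so counts of 0 in lists of this size lie near those shares. VLDLR came nearest, at 78.5 with the hairpin and 154 with the control (log2 ratio -0.97), and was past 2-fold downward under quantile normalization.

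**Figure D5:**
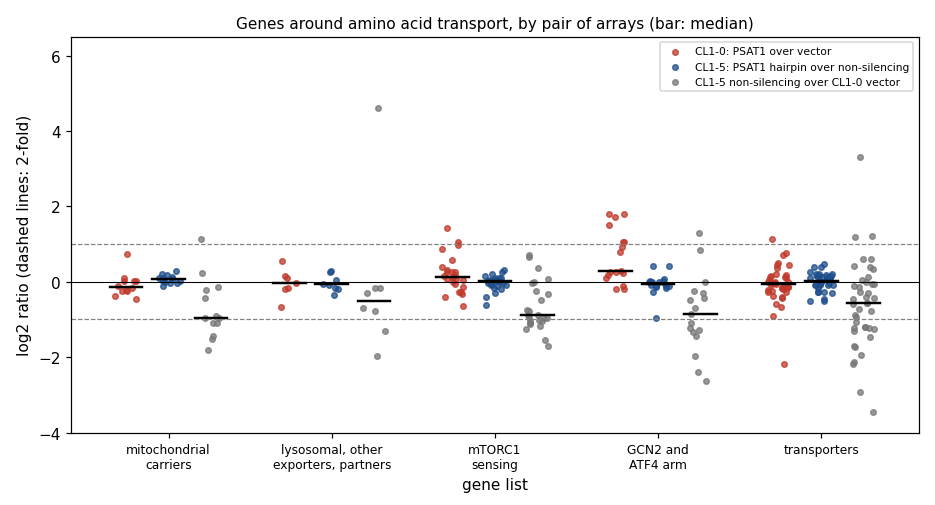
Log2 ratio (vertical axis) of each measured gene of the 4 lists and of the transporters, in the pairs CL1-0 PSAT1 over vector, CL1-5 PSAT1 hairpin over non-silencing, and CL1-5 non-silencing over CL1-0 vector; bars are medians and dashed lines mark 2-fold. The GCN2 and ATF4 arm reaches 1.81 in the CL1-0 pair, and all lists lie mostly below 0 between the lines.

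Between the lines, all 4 lists had medians below the -0.48 of all genes on the deposited values, where 5.14% of all genes were higher and 24.7% lower. The mitochondrial carriers had 1 higher (SFXN3) and 5 lower of 13, with a median log2 ratio of -0.95, the lysosomal and other exporters 1 higher and 2 lower of 8 (-0.50), the sensing list 0 higher and 9 lower of 25 (-0.89), and the GCN2 and ATF4 arm 1 higher (VLDLR) and 8 lower of 17 (-0.85). Under both scalings the lower genes shrank to the ornithine carrier SLC25A15, the aromatic amino acid carrier SLC16A10, none of the sensing list after quantile normalization and NPRL2 after centring, and EIF2AK3, ATF3 and ASNS of the ATF4 arm. In the sensing list, RRAGA and RRAGD were higher under both scalings. These 2 of 25 lie near the 9.29% of all genes after quantile normalization and the 10.1% after centring. Lower were 0 of 25 after quantile normalization and 1 of 25 after centring, against 8.71% and 8.59% of all genes. PPP1R15A, which reverses the stress-induced block of translation, joined VLDLR as higher in the ATF4 arm under both, and SFXN3 and CD44 remained the only higher genes of their lists. ASNS read 805 and 859.98 on the hairpin and non-silencing arrays of CL1-5 and 4859.8 and 4523 on the PSAT1 and vector arrays of CL1-0, 5.26-fold lower. CD44, whose splice variant is known to hold SLC7A11 at the cell surface, read 942 and 1208 in CL1-5, against 21.2 and 26.9 in CL1-0, at least 24.6-fold higher, while SLC7A11 was lower in the same cells.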

How the data were processed

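The authors deposited 1 linear intensity per probe set and array, made with MAS5 per the submitters' processing notes, whose version and scaling target no source used here gives. The table held 54675 probe sets, 62 of them controls. Of all probe sets, 41097 had 1 gene symbol in the platform annotation, 1801 had several and 11777 had no gene, and symbols were updated through a RefSeq gene table. The 63 probe sets of Y-linked genes and X inactivation were left out. Signals were raised to a floor of 49.0, the pooled 50th percentile, and log2 transformed, and each gene was read on its probe set of highest mean log2 signal. Log2 ratios, medians and counts were computed with Python 3.11.15, pandas 2.3.3 and numpy 2.4.6, and the counting was tested on simulated data. The 1 array per group limits the precision. Median signals were 46.0 and 45.4 on the hairpin and non-silencing arrays of CL1-5 and 53.2 and 53.2 on the PSAT1 and vector arrays of CL1-0. Values are given for every transporter past 2-fold in a pair and for 18 chosen carriers, the rest by range and count. The members and lists were chosen with earlier results of these data known. Alternatives were quantile normalization, median centring, floors at the 25th and 65th percentile, the mean over probe sets, leaving out probe sets that can match several transcripts, and folds of 1.5 and 3. No source used here names the annotation's build, and promoter sequences are RefSeq's on GRCh38.p14.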

Additional observations from a re-analysis of the deposited data

How the results depend on the processing

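No paired analysis was possible because each group had 1 array. The scaling of the arrays decides how many transporters differ between the lines: of all genes, 5.14% were higher and 24.7% lower in CL1-5 on the deposited values, against 9.29% and 8.71% after quantile normalization and 10.1% and 8.59% after median centring. Of the transporters, 3 were higher and 15 lower on the deposited values, against 5 and 6 after quantile normalization and 6 and 7 after centring. Leaving out probe sets that can match several transcripts gave 9 lower, but of only 28 transporters measured, against 25.3% of all genes. The 15 lower on the deposited values were of 42 measured. A fold of 1.5 gave 5 higher, and a fold of 3 gave 1 higher and 7 lower. Shares of all genes at these folds are not given here for any pair. Without probe sets that can match several transcripts the SLC7A1 log2 ratio turned to 0.16, from another of its probe sets, against -1.30. In the CL1-0 pair the 1 higher transporter became 0 after quantile normalization, without those probe sets and at a fold of 3, and 3 at a fold of 1.5. The 1 lower became 2 with the floor at the 25th percentile (of 54 measured, against 1.04% of all genes) and 3 at a fold of 1.5. The counts of 0 in the CL1-5 pair were 0 under all 8 alternatives. Of the 15 lower transporters, 5 (SLC1A3, SLC38A1, SLC6A8, SLC7A11 and SLC7A6) remained past 2-fold under every alternative of scaling, floor and probe set that measured them, and of the 3 higher, 1 (SLC7A7). Averaging probe sets took SLC1A1 under 2-fold, and the higher floor, at the 65th percentile, did so for SLC6A15. The cause of these shifts was not tested. With alternatives added after the data were seen, choosing the probe set after the floor gave the same counts, and setting the hairpin array of CL1-5 against the PSAT1 array of CL1-0 gave 4 higher and 15 lower. Signal near the floor limits what can be said of the dim members, and 14 of the 56 transporters had no ratio in any pair.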

Other observations

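Probe sets that carry several gene symbols name no gene and were left out of every count, but some belong to copies of members. A probe set shared by SLC7A5P2 and SLC7A5P1, partial copies of the leucine carrier SLC7A5, read 178 and 104 on the hairpin and non-silencing arrays of CL1-5 and 634 and 252 on the PSAT1 and vector arrays of CL1-0. The signal was largest on the PSAT1 array of CL1-0, whereas SLC7A5 read 1584 and 1628 on the PSAT1 and vector arrays. A second probe set of these copies, which also carries the symbol SMG1P3, read 299 and 293 in CL1-5 and 653 and 764 in CL1-0, in the same order of arrays, so the probe sets of these copies did not move together in CL1-0. A probe set shared by SLC6A8 and its copies SLC6A10P and SLC6A10PB read 202 and 187 in CL1-5 and 524 and 606 in CL1-0, with both CL1-5 arrays below both CL1-0 arrays as for SLC6A8 itself.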
